A study of Mus musculus with 12 samples.

Results

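The genes described here handle heme, the iron-bearing group of hemoglobin and myoglobin. They are 10 genes taken by symbol from a table of 32047 genes, namely 2 heme oxygenases (Hmox1, Hmox2), 2 biliverdin reductases (Blvra, Blvrb), 3 scavenging genes (Hp, Hpx, Cd163) and 3 heme transporters (Slc46a1, Flvcr1, Abcb6). All 10 were found, and the rule that picks them reads their symbols alone. RNA of mouse kidney was sequenced in 12 libraries, 4 in each of 3 groups. In the AKI_A_FGF23_R176QR179Q group, called the variant group here, a form of the bone hormone FGF23 with the substitutions R176Q and R179Q was overexpressed, and acute kidney injury (AKI) from rhabdomyolysis, the breakdown of skeletal muscle, was induced 3 weeks afterwards. The AKI_A_mcherry group is named for the same injury and for mCherry, a red fluorescent protein. The NC group carries no injury in its name, and the labels expand neither NC nor the letter A. The sources used here give no strain, sex or age, no vector or promoter for the overexpression, and no time from injury to collection. No group analysed here carried the variant without the injury.

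Muscle breakdown releases myoglobin, which the kidney filters and takes up, so tubule cells meet free heme. Heme oxygenase opens the heme ring and yields iron, carbon monoxide and biliverdin, and biliverdin reductase turns biliverdin into bilirubin. In the blood, haptoglobin binds free hemoglobin and hemopexin binds free heme, while the macrophage receptor CD163 takes up haptoglobin with its hemoglobin. Heme oxygenase 1, the inducible enzyme, is known for its rise in the kidney after heme exposure.

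Across the 10 genes, AKI_A_mcherry kidneys had more Hmox1, Blvra, Blvrb and Flvcr1 RNA and less Slc46a1 and Abcb6 RNA than NC kidneys. Of these, the Blvra call was lost in 7 of 18 alternative settings. In variant kidneys, Hmox1 was 3.29-fold lower than in AKI_A_mcherry kidneys and still 6.44-fold above NC. Blvrb was slightly higher in the variant group than in AKI_A_mcherry, a call lost in 10 of 18 alternative settings, and the other 8 genes were not called between those injured groups. A gene was called when edgeR's quasi-likelihood test gave a Benjamini-Hochberg adjusted p under 0.05 over all genes tested. Levels are CPM, counts scaled to library size with TMM factors, and differences are log2 fold changes with their standard errors.

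**Figure D1:**
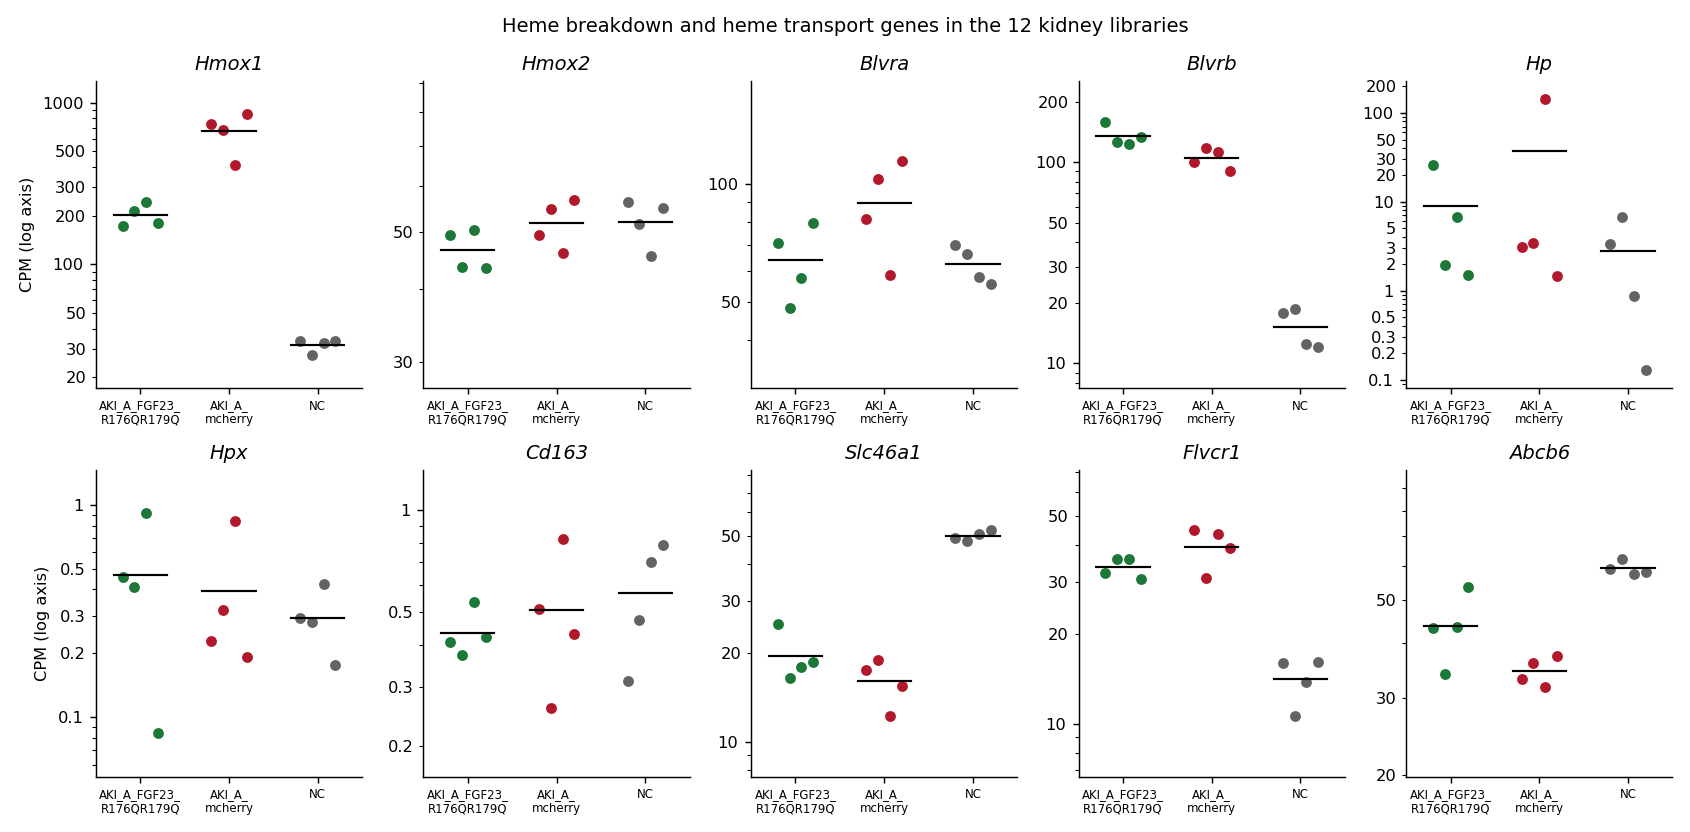
CPM (log axis, a separate range in each panel) of the 10 genes in the 12 libraries, with a point per library and a line at the mean of each group of 4. Hmox1 lies at 172 to 243 CPM in the variant group, 410 to 851 CPM in AKI_A_mcherry and 27.5 to 33.6 CPM in NC, with no overlap between the groups.

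The libraries held 55324078 to 70638283 counts each. Fgf23 itself had 320 to 517 counts in the variant libraries and 0 in the 8 others, as the labels imply. The kidney epithelium markers, a list of 8 genes, were detected in every group, with summed levels of 6405 to 8721 CPM in the variant group, 4144 to 4668 CPM in AKI_A_mcherry and 11651 to 13030 CPM in NC. The 5 skeletal muscle markers found in the table summed to at most 1.93 CPM in a library. Nothing in the labels ties the libraries to separate animals, so a p-value here covers only the spread between libraries, which may be technical. In whole kidney RNA, fewer cells of a type and less RNA per cell cannot be told apart.

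The upstream sequences of the members are shown because Blvrb and Flvcr1 were higher, and Slc46a1 and Abcb6 lower, in both injured groups than in NC. RefSeq's windows of build GRCm38.p6, matched by symbol, covered 8 of the 10 genes with 11 windows; Hmox1 and Hp are not shown. Each sequence runs 5′ to 3′ on the gene's strand and gives the 250 bases before an annotated start. Capitals mark the core of the antioxidant response element, TGACNNNGC, the letters that NRF2 with a small MAF protein is known to bind.
Blvrb, chr7:27447728-27447977, plus strand: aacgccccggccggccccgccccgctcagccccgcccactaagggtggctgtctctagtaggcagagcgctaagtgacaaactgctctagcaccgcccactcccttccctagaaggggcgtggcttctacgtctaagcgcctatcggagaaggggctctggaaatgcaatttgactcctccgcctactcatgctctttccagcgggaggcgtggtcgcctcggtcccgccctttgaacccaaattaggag
Flvcr1, chr1:191026191-191026440, minus strand: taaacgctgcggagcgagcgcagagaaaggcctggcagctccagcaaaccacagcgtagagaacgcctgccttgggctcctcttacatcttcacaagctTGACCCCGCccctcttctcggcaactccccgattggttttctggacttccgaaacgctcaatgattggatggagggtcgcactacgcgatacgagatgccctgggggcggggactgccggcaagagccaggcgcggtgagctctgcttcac
Slc46a1, chr11:78465451-78465700, plus strand: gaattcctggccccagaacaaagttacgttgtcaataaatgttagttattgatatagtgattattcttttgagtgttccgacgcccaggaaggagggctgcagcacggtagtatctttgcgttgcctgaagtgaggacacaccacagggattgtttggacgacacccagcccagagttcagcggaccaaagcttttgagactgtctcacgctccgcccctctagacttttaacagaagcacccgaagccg
Abcb6, chr1:75180393-75180642, minus strand: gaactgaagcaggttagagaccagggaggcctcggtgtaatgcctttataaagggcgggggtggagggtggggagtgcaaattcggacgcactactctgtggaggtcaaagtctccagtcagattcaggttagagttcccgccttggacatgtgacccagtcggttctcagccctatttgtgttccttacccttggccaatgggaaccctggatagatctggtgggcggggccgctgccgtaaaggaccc
The core was searched on both strands. It occurred in 3 of the 11 windows, and 10.2% of all 32851 windows of that length in the table hold it. In Flvcr1 it spans bases 151 to 143 before the start, on the gene's strand. In Blvra and Hpx it lies on the other strand, so the printed letters are its reverse complement. The matches are shown with 10 bases on each side.
Blvra, chr2:127070598-127070626, bases 49 to 41 before the start: cacgggaattGCTCGGTCAaggctccgcc
Hpx, chr7:105600193-105600221, bases 95 to 87 before the start: gccaatattgGCATAGTCAtggaagacaa
The AP-1 letters TGANTCA, which share their first letters with the core so that a site can match both, occur in 6.75% of all windows and in no window of a member. The E-box CACGTG occurs in 6.02% of all windows and likewise in no window of a member. A match in these letters describes the sequence and is not a measured binding site.

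Hmox1 (ENSMUSG00000005413) encodes the inducible heme oxygenase. It measured 172, 215, 243 and 179.1 CPM in the variant libraries (replicates 1, 2, 3 and 5). The AKI_A_mcherry libraries had 735, 675, 410 and 851 CPM, and the NC libraries 33.6, 27.5, 32.5 and 33.6 CPM. All 4 injured mCherry libraries lay above all variant libraries, and these above all NC libraries. AKI_A_mcherry exceeded NC by 4.42 ± 0.23 on the log2 scale, 21.3-fold (edgeR adjusted p = 1.64e-07). The variant group lay 1.72 ± 0.21 on the log2 scale under AKI_A_mcherry (log2 fold change -1.72, edgeR adjusted p = 0.000868). Against NC the variant group was higher by 2.69 ± 0.13 on the log2 scale (edgeR adjusted p = 3.39e-07). These 3 Hmox1 calls held in all 18 alternative settings tried.

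Hmox2 (ENSMUSG00000004070) encodes the constitutive heme oxygenase. Its levels were 49.4, 43.5, 50.4 and 43.3 CPM in the variant libraries. The AKI_A_mcherry libraries had 49.4, 54.6, 46.1 and 56.6 CPM, and the NC libraries 56.3, 51.6, 45.5 and 54.9 CPM. The 3 groups overlapped. The log2 fold change was 0.01 ± 0.11 for AKI_A_mcherry against NC (edgeR adjusted p = 0.936), -0.15 ± 0.10 for the variant group against AKI_A_mcherry (edgeR adjusted p = 0.307) and -0.14 ± 0.09 for the variant group against NC (edgeR adjusted p = 0.251). Hmox2 shares exon sequence with Cdip1 on the other strand, and the sources used here do not say whether the counting used strand.

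Per gene length, the deposited FPKM values set both enzymes side by side. The ratio of Hmox1 to Hmox2 within a library was 4.43 to 6.26 in the variant group, with a mean of 5.51. It was 11.3 to 19.1 in AKI_A_mcherry, with a mean of 16.2, and 0.675 to 0.905 in NC, with a mean of 0.778. Hmox2 was thus the more abundant heme oxygenase transcript in all 4 NC libraries and the less abundant in all 8 injured libraries.

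Macrophages are a known source of Hmox1, and their 11 measured markers are given beside it. The summed marker level was 108 to 153 CPM in the variant group, 114 to 275 CPM in AKI_A_mcherry and 141 to 202 CPM in NC. Of the 11, Timd4 was at 0 throughout NC. Cd68, a lysosomal protein, averaged 14.6 ± 4.2 CPM in the variant group, 42.2 ± 13.9 CPM in AKI_A_mcherry and 2.78 ± 0.92 CPM in NC (SD, n = 4 each). Csf1r, the receptor for macrophage growth factor, was 31.8 to 44.0 CPM in the variant group, 19.3 to 28.7 CPM in AKI_A_mcherry and 75.1 to 92.5 CPM in NC. Adgre1, the F4/80 antigen, was at most 2.98 CPM in the variant group, 2.31 CPM in AKI_A_mcherry and 4.25 CPM in NC. Msr1, a scavenger receptor, averaged 2.01 ± 0.43 CPM in the variant group, 4.39 ± 3.18 CPM in AKI_A_mcherry and 0.631 ± 0.123 CPM in NC (SD, n = 4 each). Itgam, an integrin of myeloid cells, averaged 3.16 ± 1.05 CPM in the variant group, 6.30 ± 3.82 CPM in AKI_A_mcherry and 1.08 ± 0.42 CPM in NC (SD, n = 4 each). Lyz2, lysozyme, averaged 23.2 ± 6.1 CPM in the variant group, 53.3 ± 30.8 CPM in AKI_A_mcherry and 29.0 ± 12.6 CPM in NC (SD, n = 4 each). By group means, 4 of the 11 markers (Cd68, Msr1, Itgam and Timd4) had the same order of groups as Hmox1, 2 (Csf1r and Adgre1) had the opposite order, and 5 had other orders. The libraries of the variant group and AKI_A_mcherry did not overlap for Cd68, Lyz2 and Csf1r. Cd68 and Lyz2 were lower in the variant group, and Csf1r was higher. For the other markers, among them Msr1 and Itgam, these libraries overlapped. Of the 5 with other orders, C1qa, C1qb and C1qc averaged higher in the variant group than in AKI_A_mcherry. Their means were 17.2, 21.6 and 11.9 CPM in the variant group and 12.4, 15.6 and 7.87 CPM in AKI_A_mcherry. The part of the 11 markers in the Hmox1 result was not tested.

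Blvrb (ENSMUSG00000040466) encodes biliverdin reductase B, which also reduces flavins. It measured 158, 127, 123 and 134 CPM in the variant libraries, 99.9, 117, 113 and 91.0 CPM in the AKI_A_mcherry libraries, and 17.9, 18.6, 12.4 and 12.1 CPM in the NC libraries. The variant libraries lay just above the AKI_A_mcherry libraries, and both sets far above NC. AKI_A_mcherry exceeded NC by 2.81 ± 0.17 on the log2 scale, 7.00-fold (edgeR adjusted p = 4.30e-07). The variant group exceeded NC by 3.17 ± 0.17 on the log2 scale, 9.01-fold (edgeR adjusted p = 5.76e-07). Against AKI_A_mcherry it was higher by 0.37 ± 0.11 on the log2 scale, 1.29-fold (edgeR adjusted p = 0.0422). In the settings that lost that last call the adjusted p reached 0.233. They included leaving out variant replicate 1 (0.29 on the log2 scale, edgeR adjusted p = 0.117), replicate 2 (0.40, adjusted p = 0.0671) or replicate 5 (0.37, adjusted p = 0.0853). They also included leaving out AKI_A_mcherry replicate 1 (0.34, edgeR adjusted p = 0.0848), replicate 3 (0.40, adjusted p = 0.0548) or replicate 4 (0.30, adjusted p = 0.103).

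Blvra (ENSMUSG00000001999) encodes biliverdin reductase A, the main enzyme that makes bilirubin in the adult. Its levels were 70.7, 48.3, 57.4 and 79.5 CPM in the variant libraries. The AKI_A_mcherry libraries had 81.2, 103, 58.6 and 114 CPM, and the NC libraries 69.7, 66.4, 57.8 and 55.4 CPM. AKI_A_mcherry replicate 3 lay within the range of NC, while its other 3 libraries lay above it. AKI_A_mcherry was higher than NC by 0.54 ± 0.19 on the log2 scale, 1.46-fold (edgeR adjusted p = 0.0334). The call was lost without AKI_A_mcherry replicate 2 (0.46 on the log2 scale, edgeR adjusted p = 0.0833) or replicate 4 (0.40, adjusted p = 0.0988). It was also lost without NC replicate 2 (0.58, edgeR adjusted p = 0.0545), replicate 3 (0.51, adjusted p = 0.0825) or replicate 4 (0.49, adjusted p = 0.0908). No filter on low counts (0.54, edgeR adjusted p = 0.0529) and the replicate block (0.50, adjusted p = 0.0585) lost it too. The log2 fold change was -0.48 ± 0.21 for the variant group against AKI_A_mcherry (edgeR adjusted p = 0.130). Without AKI_A_mcherry replicate 3 that difference passed the test (-0.63, edgeR adjusted p = 0.0386). Against NC, the variant group differed by 0.06 ± 0.15 (edgeR adjusted p = 0.791).

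On the FPKM scale the ratio of Blvrb to Blvra was 1.48 to 2.31 in the variant group, 0.701 to 1.69 in AKI_A_mcherry and 0.188 to 0.246 in NC. Blvra was the more abundant reductase transcript in every NC library, and Blvrb in every variant library. Of the AKI_A_mcherry libraries, replicates 1 and 3 lay above 1, replicate 2 at 1.00 and replicate 4 under it. The FPKM ratio of Hmox1 to Blvrb averaged 2.42 in the variant group (range 1.73 to 3.14), 10.4 in AKI_A_mcherry (range 5.78 to 14.9) and 3.49 in NC (range 2.35 to 4.43). This ratio overlapped between the variant group and NC, and lay higher in every AKI_A_mcherry library.

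**Figure D2:**
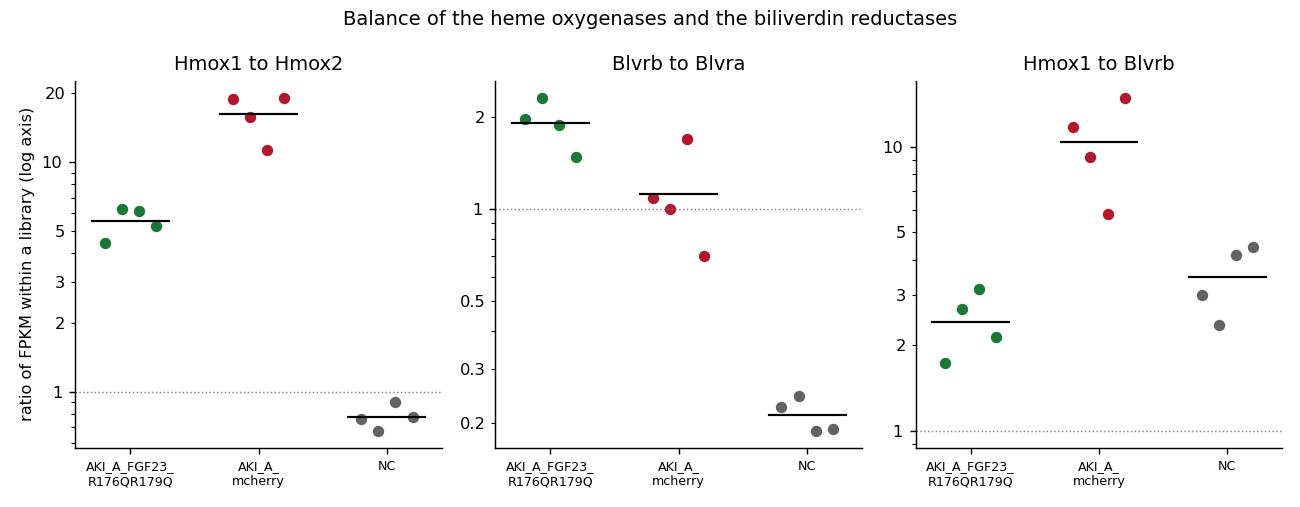
Ratio of deposited FPKM values within each library (log axis) for the heme oxygenases, the biliverdin reductases and Hmox1 to Blvrb, with a point per library, a line at the group mean and a dotted line at a ratio of 1. The Hmox1 to Hmox2 ratio averages 5.51 in the variant group, 16.2 in AKI_A_mcherry and 0.778 in NC.

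Flvcr1 (ENSMUSG00000066595) encodes a cell-surface exporter of heme that also carries choline. It measured 32.1, 35.7, 35.9 and 30.8 CPM in the variant libraries, 44.6, 30.8, 43.3 and 38.9 CPM in the AKI_A_mcherry libraries, and 16.0, 10.6, 13.8 and 16.2 CPM in the NC libraries. Both injured groups lay above NC with no overlap, and they overlapped each other. The log2 fold change was 1.50 ± 0.16 for AKI_A_mcherry against NC, 2.82-fold (edgeR adjusted p = 2.24e-05), and 1.27 ± 0.13 for the variant group against NC, 2.41-fold (edgeR adjusted p = 3.51e-05). It was -0.23 ± 0.12 for the variant group against AKI_A_mcherry (edgeR adjusted p = 0.209), and of the 18 settings it passed the test in 1, without AKI_A_mcherry replicate 2 (-0.33, edgeR adjusted p = 0.0401). Flvcr1 overlaps exons of A230020J21Rik on the other strand.

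Slc46a1 (ENSMUSG00000020829) encodes a proton-coupled folate carrier of the cell membrane that also takes up heme. Its levels were 25.1, 16.5, 17.9 and 18.7 CPM in the variant libraries, 17.5, 18.9, 12.2 and 15.5 CPM in the AKI_A_mcherry libraries, and 49.1, 48.1, 50.5 and 52.3 CPM in the NC libraries. Every injured library lay well under every NC library. The log2 fold change was -1.62 ± 0.14 for AKI_A_mcherry against NC, 3.07-fold lower (edgeR adjusted p = 4.79e-06). It was -1.33 ± 0.13 for the variant group against NC, 2.52-fold lower (edgeR adjusted p = 1.86e-05). Between the injured groups it was 0.29 ± 0.17 (edgeR adjusted p = 0.245).

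Abcb6 (ENSMUSG00000026198) encodes a porphyrin transporter found in mitochondria and other membranes. It measured 43.3, 33.9, 43.4 and 53.7 CPM in the variant libraries, 33.0, 36.0, 31.7 and 37.2 CPM in the AKI_A_mcherry libraries, and 58.8, 62.1, 57.5 and 58.1 CPM in the NC libraries. NC was the highest group with no overlap, while the injured groups overlapped each other. The log2 fold change was -0.76 ± 0.09 for AKI_A_mcherry against NC, 1.69-fold lower (edgeR adjusted p = 5.72e-05). It was -0.42 ± 0.12 for the variant group against NC, 1.34-fold lower (edgeR adjusted p = 0.0192), a call lost in 3 of the 18 settings. These were library totals alone (-0.0866, edgeR adjusted p = 0.605), the fit without the library richest in adipocyte markers in each group (-0.40, adjusted p = 0.0873) and the fit without NC replicate 2 (-0.40, adjusted p = 0.0513). For the variant group against AKI_A_mcherry it was 0.34 ± 0.13 (edgeR adjusted p = 0.0902), and it passed the test in 3 of the 18 settings, among them without variant replicate 2 (0.44, edgeR adjusted p = 0.0365). Abcb6 shares exon sequence with Gm29253 on the same strand, so its counts may include reads of that gene. The summed kidney epithelium markers given above were also lowest in AKI_A_mcherry and highest in NC, as were Slc46a1 and Abcb6, and their part in these results was not tested.

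Hp (ENSMUSG00000031722), haptoglobin, measured 25.6, 1.93, 6.77 and 1.52 CPM in the variant libraries (replicates 1, 2, 3 and 5). The AKI_A_mcherry libraries had 3.10, 3.46, 142 and 1.44 CPM, and the NC libraries 3.33, 6.79, 0.866 and 0.129 CPM. A single library, AKI_A_mcherry replicate 3, stood far above the rest, and the groups overlapped. The log2 fold change was 3.77 ± 1.51 for AKI_A_mcherry against NC (edgeR adjusted p = 0.0571), -2.07 ± 1.42 for the variant group against AKI_A_mcherry (edgeR adjusted p = 0.319) and 1.71 ± 1.06 for the variant group against NC (edgeR adjusted p = 0.226). Without AKI_A_mcherry replicate 3 the log2 fold change was -0.03 for AKI_A_mcherry against NC (edgeR adjusted p = 0.983) and 1.75 for the variant group against AKI_A_mcherry (edgeR adjusted p = 0.201). AKI_A_mcherry against NC passed the test in 5 of the 18 settings, among them without AKI_A_mcherry replicate 1 (4.15, edgeR adjusted p = 0.0410), replicate 2 (4.15, adjusted p = 0.0455) or replicate 4 (4.17, adjusted p = 0.0369).

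Adipocytes make haptoglobin, and the 5 adipocyte markers Adipoq, Plin1, Cfd, Retn and Lep varied between libraries in a like way. Their summed level was 80.4, 0.630, 8.87 and 1.45 CPM in the variant libraries, 1.98, 0.180, 110 and 0.0743 CPM in the AKI_A_mcherry libraries, and 22.8, 88.4, 11.7 and 1.79 CPM in the NC libraries. In each group the library with the highest adipocyte sum also had the highest Hp level. Between groups the levels did not always match. NC replicate 2 had a higher adipocyte sum than variant replicate 1 (88.4 against 80.4 CPM) but less Hp (6.79 against 25.6 CPM). None of the 5 markers was at 0 in all libraries of a group. Their part in the Hp values was not tested. Liver is the main source of plasma haptoglobin, and the 7 hepatocyte markers summed to 273 to 444 CPM in the variant group, 132 to 261 CPM in AKI_A_mcherry and 160 to 236 CPM in NC. AKI_A_mcherry replicate 3, the library with the most Hp, had the lowest hepatocyte sum, at 132 CPM. That sum is mostly Ttr, Serpina1a and Fgb, which had different orders of groups. Ttr averaged 78.4 CPM in the variant group, 12.6 CPM in AKI_A_mcherry and 129 CPM in NC. Fgb averaged 73.9, 144 and 0.693 CPM in that order. Alb averaged at most 9.76 CPM and Ahsg at most 0.120 CPM in a group. The part of hepatocytes in the Hp values was not tested. The 8 neutrophil markers summed to at most 2.87 CPM in the variant group, 5.16 CPM in AKI_A_mcherry and 0.915 CPM in NC, with 2 markers at 0 throughout AKI_A_mcherry and 3 throughout NC.

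**Figure D3:**
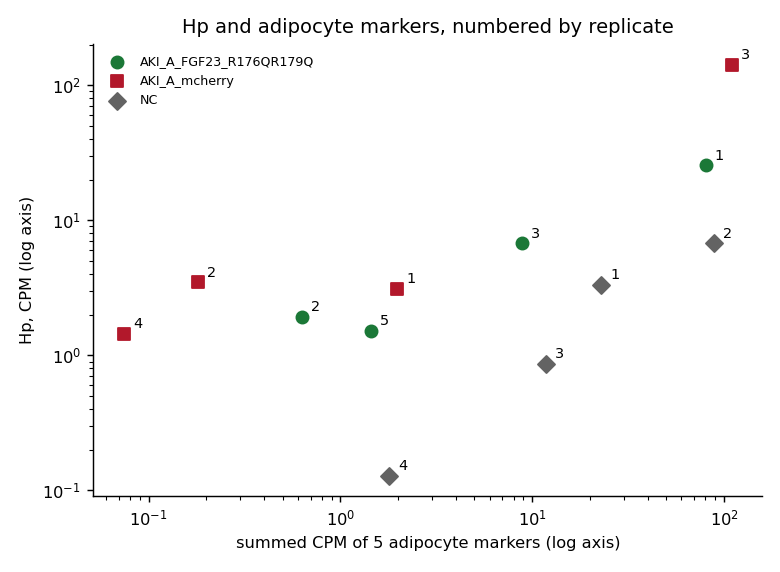
Hp level (CPM, log axis) against the summed level of 5 adipocyte markers (CPM, log axis) in the 12 libraries, each numbered by its replicate. AKI_A_mcherry replicate 3, at 142 CPM of Hp and 110 CPM of markers, lies at the upper right. Variant replicate 1 has the next highest Hp level, 25.6 CPM, at 80.4 CPM of markers. NC replicate 2 lies further right than variant replicate 1, at 88.4 CPM of markers, but lower, at 6.79 CPM of Hp.

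Hpx (ENSMUSG00000030895), hemopexin, had only 6 to 65 counts per library. Its levels were 0.456, 0.412, 0.915 and 0.0842 CPM in the variant libraries, 0.228, 0.320, 0.839 and 0.193 CPM in the AKI_A_mcherry libraries, and 0.294, 0.281, 0.425 and 0.177 CPM in the NC libraries. The groups overlapped, and no comparison called it, with edgeR adjusted p-values of 0.547 for AKI_A_mcherry against NC, 0.832 for the variant group against AKI_A_mcherry and 0.415 for the variant group against NC. Cd163 (ENSMUSG00000008845), the macrophage receptor, had 13 to 52 counts per library. It measured 0.373 to 0.535 CPM in the variant group, 0.260 to 0.823 CPM in AKI_A_mcherry and 0.313 to 0.789 CPM in NC. These ranges overlapped, and the edgeR adjusted p-values were 0.803 for AKI_A_mcherry against NC, 0.731 for the variant group against AKI_A_mcherry and 0.467 for the variant group against NC. The standard errors of both genes were 0.38 to 0.69 on the log2 scale, against 0.09 to 0.13 for Abcb6, so smaller differences could not be told from the spread between libraries.

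**Figure D4:**
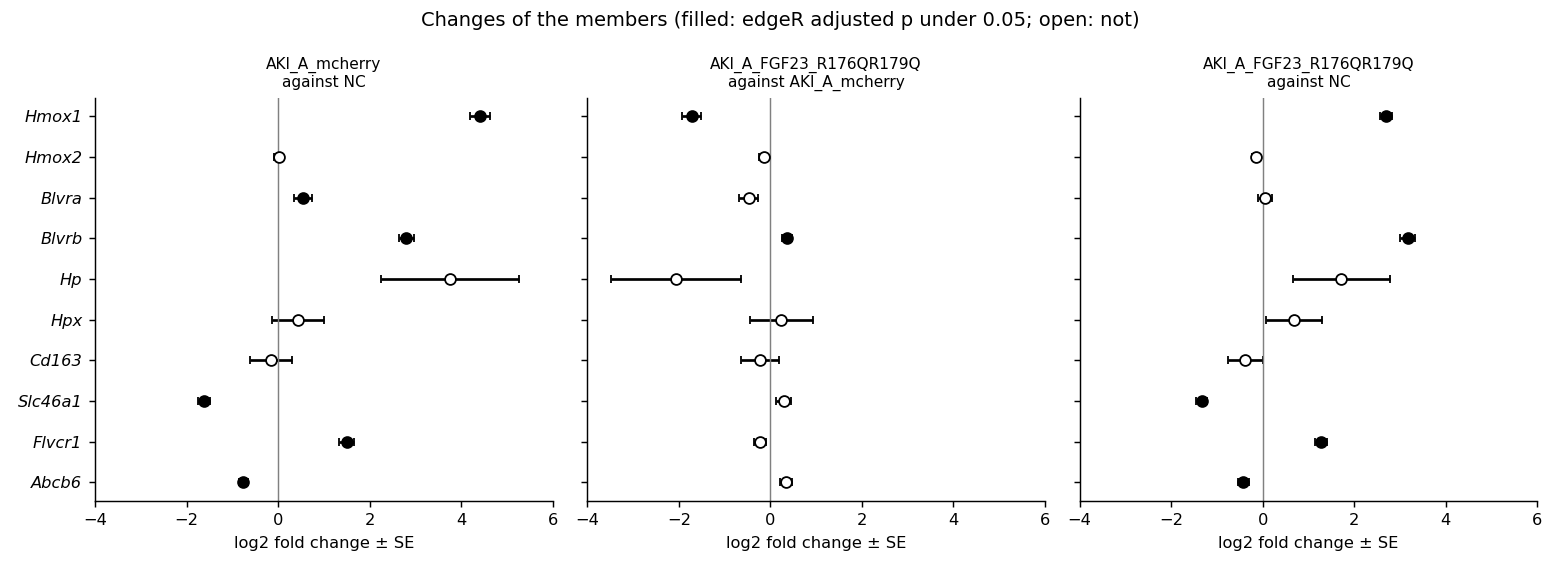
Log2 fold change (point) with its standard error (bar) of the 10 genes in the 3 comparisons. Filled points passed edgeR's test at an adjusted p under 0.05 and open points did not: 6 genes are filled for AKI_A_mcherry against NC, 2 for the variant group against AKI_A_mcherry and 5 for the variant group against NC.

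Counted together, 4 of the 10 genes were higher and 2 lower in AKI_A_mcherry than in NC, and 5 had groups that did not overlap. Of the 18724 genes tested there, 27.2% were higher and 26.0% lower, and 51.5% did not overlap. In the variant group against AKI_A_mcherry, 1 gene was higher, 1 lower and 2 did not overlap, where 11.7% of 18824 genes were higher, 11.4% lower and 28.4% did not overlap. In the variant group against NC, 3 were higher, 2 lower and 5 did not overlap, where 21.7% of 19005 genes were higher, 20.6% lower and 41.6% did not overlap. Read against these shares, the counts are no result about the 10 genes as a set. The median log2 fold change of the 10 genes was 0.49, -0.18 and 0.37 in the 3 comparisons in that order, and that of all genes tested was -0.00264, 0.00837 and 0.0109. All 10 genes passed the filter on low counts in each comparison.

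Scaling by library totals alone moved the median of all genes to 0.12 for AKI_A_mcherry against NC, 0.21 for the variant group against AKI_A_mcherry and 0.34 for the variant group against NC. Of the genes called under it, 79.7% had more RNA in the variant group than in AKI_A_mcherry, against 50.6% with TMM factors, and 78.9% more than in NC, against 51.3% with TMM factors. Taken relative to these medians, the log2 fold changes of the 10 genes were within 0.0558 of those with TMM factors. Without the library richest in adipocyte markers in each group, 4 members were higher and 2 lower in AKI_A_mcherry than in NC. The variant group then had 0 higher and 1 lower than AKI_A_mcherry, by edgeR at an adjusted p under 0.05, and 3 higher and 1 lower than NC. Hmox1 in the variant group against AKI_A_mcherry was then -1.82 on the log2 scale (edgeR adjusted p = 0.000568).

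By FPKM, which is per gene length, the order of the transcripts differed between the groups. In the variant group Hmox1 led with 121 ± 19.0 FPKM, followed by Blvrb with 50.9 ± 6.2 and Blvra with 27.4 ± 6.1 (SD, n = 4). The ranges of Blvra and Hmox2, which was next with 22.0 ± 1.8 FPKM, overlapped, as did the neighbours Abcb6, Flvcr1, Slc46a1 and Hp. In AKI_A_mcherry Hmox1 led with 344 ± 101 FPKM, and the ranges of Blvrb with 34.0 ± 3.0 and Blvra with 32.8 ± 8.9 overlapped (SD, n = 4). In NC the first places went to Blvra with 21.0 ± 2.5 FPKM and Hmox2 with 19.3 ± 1.6 FPKM, whose ranges overlapped, then to Hmox1 with 14.9 ± 1.1 FPKM and Slc46a1 with 13.4 ± 0.3 FPKM, whose ranges also overlapped (SD, n = 4). Hpx and Cd163 were last in all 3 groups, with Cd163 at a mean of at most 0.0825 FPKM.

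The 5 genes whose log2(CPM + 1) over the 12 libraries was most correlated with that of Hmox1, among 11043 genes with a mean of at least 5 CPM, were Plscr1, Nrcam, Rtn4, Aen and Nsun2. Their Pearson correlations were 0.990, 0.990, 0.990, 0.990 and 0.989, given as a description, since the 12 points form 3 groups of 4. Nrcam, a cell adhesion molecule, averaged 10.9 CPM in the variant group, 26.5 CPM in AKI_A_mcherry and 1.19 CPM in NC. Rtn4, an endoplasmic reticulum membrane protein, averaged 271 CPM in the variant group, 498 CPM in AKI_A_mcherry and 94.8 CPM in NC.

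Genes of heme synthesis were measured beside the breakdown genes. Of 8, 1 was higher and 4 lower in AKI_A_mcherry than in NC, 0 were called in the variant group against AKI_A_mcherry, and 1 was higher and 6 lower in the variant group than in NC, by edgeR's test. Between the injured groups 1 gene, Cpox, had an unadjusted p under 0.05 by edgeR, and DESeq2 called 1 and limma-voom 0 at an adjusted p under 0.05. Among all genes tested, 27.2% were higher and 26.0% lower in AKI_A_mcherry than in NC, 11.7% were higher and 11.4% lower in the variant group than in AKI_A_mcherry, and 21.7% were higher and 20.6% lower in the variant group than in NC. These shares are the background for each list that follows, and with so few genes a list the counts describe its genes only. The median log2 fold changes of the 8 genes were -0.52, -0.06 and -0.41 in those comparisons. Alas1, the rate-limiting enzyme of heme synthesis in most tissues, measured 306, 268, 349 and 322 CPM in the variant libraries, 517, 329, 295 and 422 CPM in the AKI_A_mcherry libraries, and 106, 129, 149 and 160 CPM in the NC libraries. Both injured groups lay above NC. Alas1 was 2.92-fold higher in AKI_A_mcherry than in NC (edgeR adjusted p = 6.98e-05) and 2.32-fold higher in the variant group than in NC (edgeR adjusted p = 5.31e-05). Cpox, a mitochondrial enzyme near the end of the pathway, was 2.38-fold lower in AKI_A_mcherry than in NC (edgeR adjusted p = 0.00270). In the variant group it was 1.41-fold lower than in NC (edgeR adjusted p = 0.0268). Uros, a cytosolic enzyme, was lower than in NC in both injured groups. It was 2.21-fold lower in AKI_A_mcherry (edgeR adjusted p = 4.57e-05) and 2.03-fold lower in the variant group (edgeR adjusted p = 9.40e-05).

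Of 10 further genes of heme transport and binding, 2 were higher and 4 lower in AKI_A_mcherry than in NC, 2 were higher and 2 lower in the variant group than in AKI_A_mcherry, and 2 were higher and 6 lower in the variant group than in NC. All genes stood at 27.2% higher and 26.0% lower, 11.7% and 11.4%, and 21.7% and 20.6% in those comparisons. The median log2 fold changes of the 10 genes were -0.34, -0.05 and -0.39. Flvcr2, a relative of Flvcr1 and a choline transporter also described as a heme importer, measured 15.2, 11.2, 9.38 and 10.9 CPM in the variant libraries, 1.91, 1.58, 2.22 and 2.14 CPM in the AKI_A_mcherry libraries, and 14.7, 21.4, 16.4 and 18.9 CPM in the NC libraries. AKI_A_mcherry lay under both other groups, which overlapped each other. Flvcr2 was 8.96-fold lower in AKI_A_mcherry than in NC (edgeR adjusted p = 2.57e-07), 5.93-fold higher in the variant group than in AKI_A_mcherry (edgeR adjusted p = 9.96e-05) and 1.51-fold lower in the variant group than in NC (edgeR adjusted p = 0.0141). Slc48a1, which moves heme out of lysosomes, was 261 to 279 CPM in the variant group, 304 to 352 CPM in AKI_A_mcherry and 172 to 207 CPM in NC. Against NC it was 1.78-fold higher in AKI_A_mcherry (edgeR adjusted p = 4.72e-05) and 1.47-fold higher in the variant group (edgeR adjusted p = 0.000273). Between the injured groups it was 1.21-fold lower in the variant group (edgeR adjusted p = 0.0407). Hebp2, a heme-binding protein, was 2.08-fold higher in AKI_A_mcherry than in NC (edgeR adjusted p = 0.00650). Between the injured groups DESeq2 called Hebp2 lower in the variant group, while edgeR (adjusted p = 0.0541) and limma-voom did not. Hebp1, its relative, was lower than in NC in both injured groups. It was 2.08-fold lower in AKI_A_mcherry (edgeR adjusted p = 7.09e-05) and 2.20-fold lower in the variant group (edgeR adjusted p = 8.99e-06). Tmem14c, a mitochondrial porphyrin carrier, was 1.34-fold lower in the variant group than in AKI_A_mcherry (edgeR adjusted p = 0.0207), a call lost without variant replicate 1 (edgeR adjusted p = 0.0563), replicate 2 (adjusted p = 0.0632) or replicate 5 (adjusted p = 0.0619), or without AKI_A_mcherry replicate 4 (adjusted p = 0.0507). It was also lost with library totals alone (-0.21 on the log2 scale, edgeR adjusted p = 0.149) and with the replicate block (-0.37, adjusted p = 0.168).

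Receptors that take up heme proteins were listed as well. Of these 4 genes, 0 were higher and 3 lower in AKI_A_mcherry than in NC, 2 were higher and 0 lower in the variant group than in AKI_A_mcherry, and 1 was higher and 3 lower in the variant group than in NC. The shares over all genes were 26.0% lower in AKI_A_mcherry than in NC, 11.7% higher in the variant group than in AKI_A_mcherry and 20.6% lower in the variant group than in NC. The median log2 fold changes of the 4 genes were -1.88, 0.87 and -1.36. Lrp2, megalin, the tubular receptor through which myoglobin is taken up, measured 758, 312, 307 and 634 CPM in the variant libraries, 183, 188, 106 and 255 CPM in the AKI_A_mcherry libraries, and 1326, 1691, 1977 and 2137 CPM in the NC libraries. The 3 groups did not overlap. Lrp2 was 9.59-fold lower in AKI_A_mcherry than in NC (edgeR adjusted p = 3.62e-06) and 3.50-fold lower in the variant group than in NC (edgeR adjusted p = 0.000747). Between the injured groups it was 2.75-fold higher in the variant group (edgeR adjusted p = 0.0140). Cubn, cubilin, its partner, was 2.90-fold higher in the variant group than in AKI_A_mcherry (edgeR adjusted p = 0.0104). Against NC it was 8.10-fold lower in AKI_A_mcherry (edgeR adjusted p = 5.79e-06) and 2.81-fold lower in the variant group (edgeR adjusted p = 0.00252). Amn, also on this list, went the other way between the injured groups, averaging 56.5 CPM in the variant group and 79.0 CPM in AKI_A_mcherry. That difference was not called (log2 fold change -0.48, edgeR unadjusted p = 0.0311, adjusted p = 0.0964). Both proximal tubule markers had the group order of Lrp2 by their means. Slc34a1, a phosphate carrier, averaged 486 ± 238 CPM in the variant group, 345 ± 19.2 CPM in AKI_A_mcherry and 4662 ± 998 CPM in NC (SD, n = 4 each). Slc5a12, a lactate carrier, averaged 55.8 ± 25.2 CPM in the variant group, 6.25 ± 4.12 CPM in AKI_A_mcherry and 134 ± 38.3 CPM in NC (SD, n = 4 each). Their part in the receptor values was not tested. Lrp1, the receptor for heme bound to hemopexin, was 1.47-fold higher in the variant group than in NC (edgeR adjusted p = 0.00168).

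Of 6 known regulators of Hmox1, 4 were higher and 0 lower in AKI_A_mcherry than in NC, 1 was higher and 0 lower in the variant group than in AKI_A_mcherry, and 3 were higher and 0 lower in the variant group than in NC. Of all genes, 27.2%, 11.7% and 21.7% were higher in those comparisons. The median log2 fold changes of the 6 genes were 0.64, -0.09 and 0.47. Mafg, not called between the injured groups by edgeR (adjusted p = 0.0555), was called lower in the variant group by DESeq2 and by limma-voom. Maff, a small MAF partner of NRF2 and BACH1, measured 20.8, 34.9, 33.2 and 26.5 CPM in the variant libraries, 40.3, 31.7, 44.0 and 33.8 CPM in the AKI_A_mcherry libraries, and 2.96, 2.76, 1.54 and 1.08 CPM in the NC libraries. Both injured groups lay far above NC and overlapped each other. Maff was 18.3-fold higher in AKI_A_mcherry than in NC (edgeR adjusted p = 1.45e-06) and 14.1-fold higher in the variant group than in NC (edgeR adjusted p = 7.49e-06). Bach1, the heme-sensing repressor of Hmox1, measured 31.8, 30.6, 25.9 and 32.3 CPM in the variant libraries, 25.6, 17.5, 21.1 and 22.3 CPM in the AKI_A_mcherry libraries, and 22.8, 25.6, 31.7 and 27.4 CPM in the NC libraries. The injured groups lay close together without overlap, and NC overlapped both. Bach1 was 1.40-fold higher in the variant group than in AKI_A_mcherry (edgeR adjusted p = 0.0244). The call was lost without variant replicate 1 (edgeR adjusted p = 0.0674), replicate 2 (adjusted p = 0.0610) or replicate 5 (adjusted p = 0.0698), or without AKI_A_mcherry replicate 3 (adjusted p = 0.0513). It was also lost with the replicate block (edgeR adjusted p = 0.101) and without the adipocyte-rich libraries (adjusted p = 0.112).

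Bilirubin is conjugated by UGT1A1 and exported by ABCC2 and ABCC3. Of these 3 genes, 1 was higher and 0 lower in AKI_A_mcherry than in NC, 1 was higher and 0 lower in the variant group than in AKI_A_mcherry, and 2 were higher and 0 lower in the variant group than in NC, while the other listed gene, Slco1b2, did not pass the filter on low counts. Of all genes, 27.2%, 11.7% and 21.7% were higher in the 3 comparisons, so 1 of 3 genes in the first is near that share. The median log2 fold changes of the 3 genes were -0.07, 0.55 and 1.53. Ugt1a1 measured 40.0, 37.2, 41.0 and 20.6 CPM in the variant libraries, 0.806, 0, 0.522 and 0.550 CPM in the AKI_A_mcherry libraries, and 0.202, 0.562, 0.310 and 0.934 CPM in the NC libraries. All 4 variant libraries lay far above the other 8. Ugt1a1 was 72.2-fold higher in the variant group than in AKI_A_mcherry (edgeR adjusted p = 0.000301) and 69.1-fold higher than in NC (edgeR adjusted p = 1.88e-06). The mouse Ugt1a genes share their last exons, so counts can be split among them and the Ugt1a1 values are uncertain. Abcc3, an exporter of the basal membrane, was 3.32-fold higher in AKI_A_mcherry than in NC (edgeR adjusted p = 0.00463). It was 2.89-fold higher in the variant group than in NC (edgeR adjusted p = 0.00417).

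**Figure D5:**
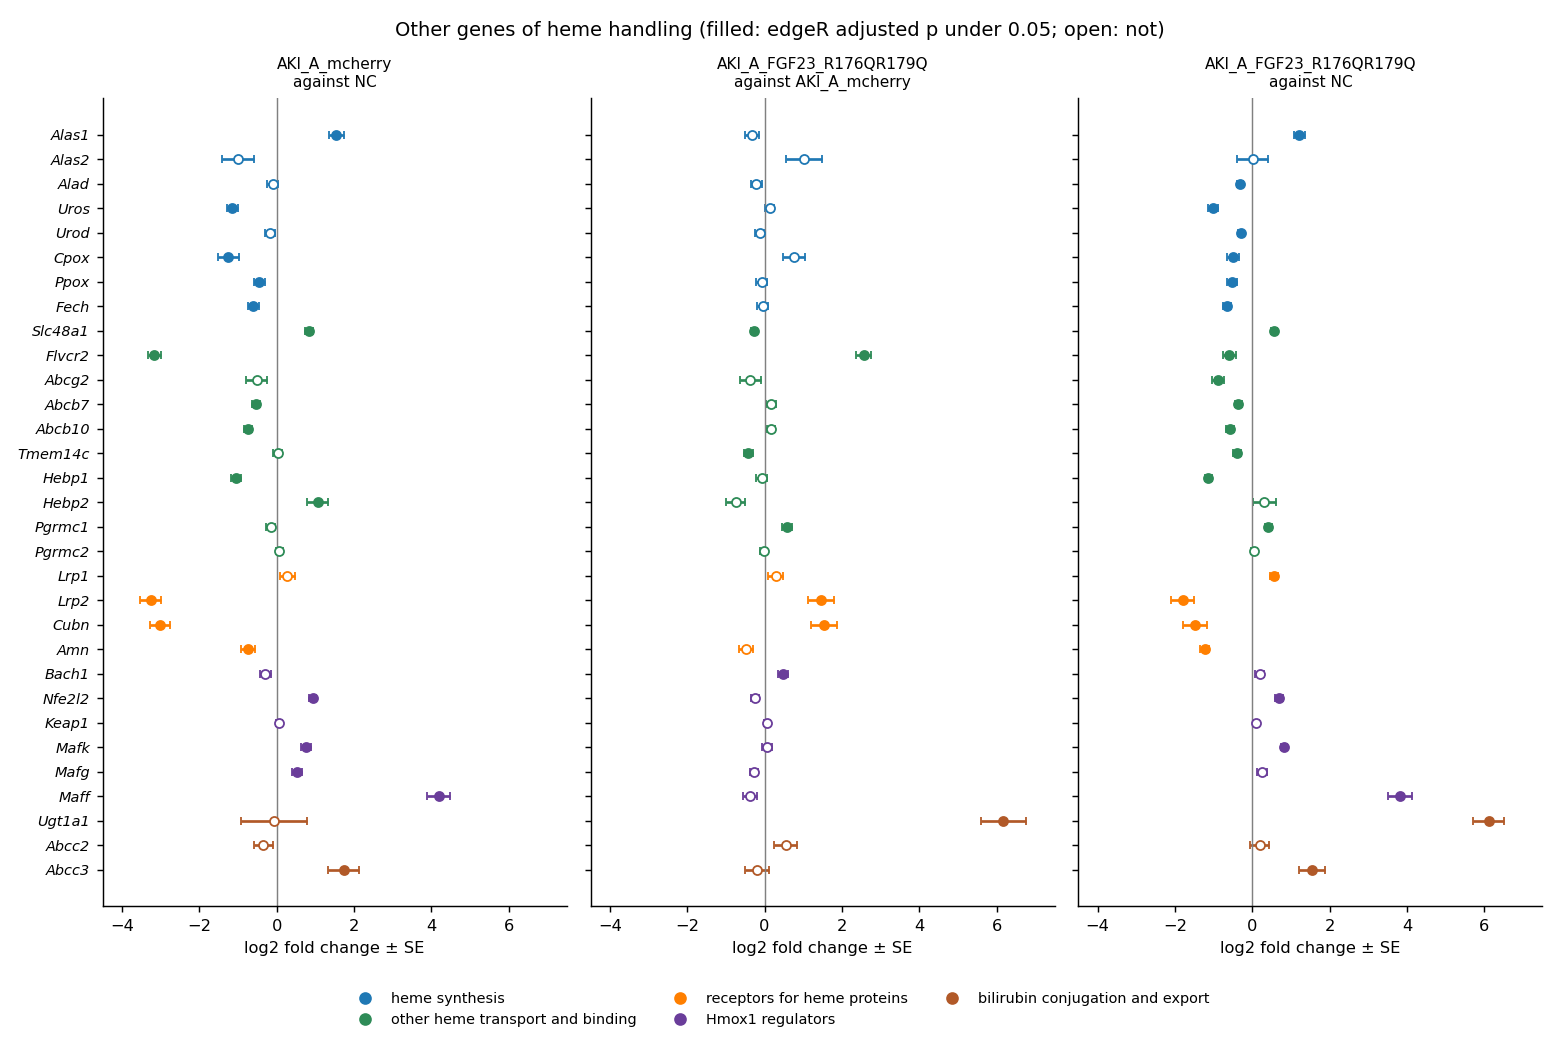
Log2 fold change (point) with its standard error (bar) of the 31 tested genes of the other heme-handling lists in the 3 comparisons, coloured by list, filled where edgeR's adjusted p was under 0.05. Lrp2 and Flvcr2 lie far to the left for AKI_A_mcherry against NC, Maff far to the right in both comparisons with NC, and Ugt1a1 far to the right in both comparisons of the variant group.

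The red blood cell markers, 6 hemoglobin and membrane genes, are given because blood left in the tissue carries heme. They summed to 57.7 to 283 CPM in the variant group, 22.6 to 180 CPM in AKI_A_mcherry and 63.1 to 252 CPM in NC, and these ranges overlapped.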

How the data were processed

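Libraries of mouse kidney were grouped by their titles. Per the labels' protocols, they were made from poly(A) RNA with a strand-marking dUTP step and read in pairs on a NovaSeq X Plus. In the submitters' processing notes stand fastp, StringTie, edgeR and build GRCm39, without versions or roles. The aligner, the annotation and the strand setting are not given in the labels or files. Per the file headers, the deposited files hold a count and an FPKM value per gene and library. FPKM, scaled by gene length and library size by the authors, served only to compare genes within a library, with no test.

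The deposited counts of the 8 libraries of a comparison were fitted with edgeR 4.0.16 in R 4.3.3, using TMM factors, filterByExpr and the quasi-likelihood F test, with adjusted p-values by Benjamini-Hochberg over all genes and a threshold of 0.05. The standard error is the log2 fold change over the square root of F. CPM use TMM factors over all 12 libraries. A supplied annotation (GENCODE M21) gave 31942 genes a symbol and 105 none. Among all counts the value 4 was found 11995 times, more often than 3 (5847 times) or 5 (3638 times), and counts are therefore not taken as independent molecules. Libraries of a group differed by more than sampling noise (chi-square over degrees of freedom 31.9 to 137). The test was run on simulated counts with far fewer changed genes than were called here and no outlying library built in. That run does not show how the test performs on these data.

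The members and lists were chosen with earlier results of these data known, and a listed item is not reported here. Named are all members, the called gene of each pathway list with the largest change per direction and comparison, and the 5 genes most like Hmox1. Mafg is named besides, because DESeq2 and limma-voom called it where edgeR did not. Amn is named because its difference between the injured groups had the opposite sign to those of Lrp2 and Cubn. The macrophage and proximal tubule markers with values of their own were chosen after these were seen. Alternatives were factors by RLE or by upper quartile, library totals alone, no filter, limma-voom (limma 3.58.1) weighted by library quality, DESeq2 1.42.0, a minimum mean of 5 CPM, a fit of all 12 libraries, a replicate block, and each library left out. Leaving out the library of each group richest in adipocyte markers was added after seeing the data. Plots used Python 3.11.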

Additional observations from a re-analysis of the deposited data

Results flagged for a closer look

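A library was set apart where its gap to the nearest other library of its group, divided by the range of the group, exceeded Dixon's critical value for 4 samples. Of 108 sets of 4 values looked at, 5 were set apart, and chance flags about 1 in 20 groups. Hp had 142 CPM in AKI_A_mcherry replicate 3, against a median of 3.28 CPM in that group (gap 0.986 of the range). The summed adipocyte markers had 110 CPM in the same library, against a median of 1.08 CPM (0.983), and 80.4 CPM in variant replicate 1, against a median of 5.16 CPM (0.897). The summed hepatocyte markers had 444 CPM in variant replicate 3, against a median of 280 CPM (0.926). The summed macrophage markers had 202 CPM in NC replicate 1, against a median of 147 CPM (0.875).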

How the results depend on the processing

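Over the 10 genes, 3 comparisons and 18 alternatives, 480 of 534 values kept their direction and their side of the threshold, 20 lost a call, 11 gained one and 23 changed sign. No call of Hmox1, Slc46a1 or Flvcr1 against NC was lost. Hpx and Cd163 fell under the minimum mean of 5 CPM, which gave them no value. The causes were not tested.

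Members higher in the variant group than in AKI_A_mcherry numbered 3 with library totals alone (Blvrb, Slc46a1 and Abcb6), 0 with no filter, 0 with the replicate block, 0 without the adipocyte-rich libraries, and 0 to 1 with each library left out. Members lower in the variant group than in AKI_A_mcherry numbered 1 to 2 with each library left out. Members lower in the variant group than in NC numbered 1 with library totals alone, 1 without the adipocyte-rich libraries and 1 to 2 with each library left out.

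Signs turned in values that were not called. For AKI_A_mcherry against NC, the log2 fold change of Hmox2 was -0.0002476 with upper quartile factors, -0.0083 with the 5 CPM minimum, -0.0026 with DESeq2 and -0.011 with all 12 libraries in 1 fit. It was -0.0477 to 0.0737 with each library left out. Hpx was -0.0103 with limma-voom, -0.25 without the adipocyte-rich libraries and -0.22 to 0.67 with each library left out. Cd163 was -0.477 to 0.0569, and Hp -0.0268 to 4.73, with each library left out. For the variant group against AKI_A_mcherry, Hmox2 was 0.0609 with library totals alone. Without the adipocyte-rich libraries Hp was 0.36 and Cd163 0.15. With each library left out, Hp was -3.46 to 1.75, Hpx -0.31 to 0.92 and Cd163 -0.43 to 0.11. For the variant group against NC, Hmox2 was 0.19 with library totals alone. Blvra was -0.13 with the replicate block and -0.0652 to 0.173 with each library left out.

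Genes called in all numbered 4347 between the variant group and AKI_A_mcherry, but 1710 with the replicate block, 2126 without the adipocyte-rich libraries, and 2410, 2853 and 2718 without variant replicate 1, 2 or 5. Between the variant group and NC they numbered 8035, but 4715 with the block. The block kept only the numbers that both groups share. Deviations of same-numbered libraries correlated at 0.152, 0.0813 and 0.231 for the variant group with AKI_A_mcherry. The values were -0.195, -0.0993 and -0.225 for the variant group with NC, and -0.389, -0.198, -0.241 and 0.101 for AKI_A_mcherry with NC. Differently numbered libraries were not compared in this way, so these values cannot decide whether the numbers mark pairs. The main fit does not take them as pairs. With the block, Hmox1 was -1.50 for the variant group against AKI_A_mcherry (edgeR adjusted p = 0.0245), Blvrb in that comparison was 0.30 (edgeR adjusted p = 0.233), and Blvra in AKI_A_mcherry against NC was 0.50 (edgeR adjusted p = 0.0585). Hpx and Cd163 rest on 6 to 65 and 13 to 52 counts a library, and whether depth or the spread between libraries sets their error was not tested.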
